A study of Mus musculus with 17 samples.

Results

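A set of 822 chromatin loops had read pairs in libraries of double positive mouse cells and none in libraries of unsorted cells of the same differentiation. A loop is a pair of chromatin regions, called anchors, that were found joined in sequenced read pairs. Overlapping anchors of all libraries were joined, and the set holds the autosomal loops with 10 or more read pairs over the 5 double positive libraries and 0 over the 12 bulk libraries. These were 822 of 1211657 loops in all. They were also 822 of the 8082 autosomal loops that reached 10 double positive read pairs, that is 10.2%, and the other 7260 had at least 1 bulk read pair. The loops were therefore chosen by the values of both groups, and the absence of bulk read pairs is a description of the choice, with no test. With bulk libraries thinned to the double positive total, 3144 of the 8082 loops (38.9%) had no bulk read pair.

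All 17 libraries came from R1, a mouse embryonic stem (ES) cell line, grown as embryoid bodies (EBs) by the hanging drop method and treated with retinoic acid (RA) at 0.5 µM until day 4. HiChIP with an antibody to H3K27ac, an acetylation of histone H3, measured contacts between chromatin fragments cut with the enzyme MboI. The 12 bulk libraries held cells of whole EBs. The 5 double positive libraries are called cluster2 in the labels. Their cells were sorted by FACS for the surface proteins EpCAM and CD38, as the methods state. Both groups share the line, the RA treatment and the day. Bulk EBs contain double positive cells as well, the sort adds steps that bulk cells did not pass, and a single ES line was used, so sorting and cell type cannot be told apart in these libraries. A double positive library had 50508 to 118179 read pairs in loops (median 85966) and a bulk library had 65148 to 241068 (median 135054). The numbers of the labels were taken as replicates, and whether the bulk libraries came from separate cultures is not given in the sources used here.

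As background, H3K27ac marks active promoters and enhancers, the regulatory regions that raise transcription of a gene from a distance. HiChIP ligates chromatin ends that lie close together in the nucleus and then enriches fragments with the mark, so a loop needs both contact and acetylation to be seen. RA is widely used to turn EBs towards neural cells, and epithelium with endoderm genes also forms in EBs. EpCAM is an adhesion molecule of epithelia, and CD38 is an enzyme at the cell surface that turns over NAD.

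Promoters at 4 of the 10 strongest loops are shown first, with that of Spint2, which lies at the anchor with the most loops, since the read pairs counted below join these regions to others. Each is given as the 100 bases before the start site of a gene, 5′ to 3′ on the gene's strand, from the mm9 (NCBIM37) reference. Capitals mark matches on either strand to the letters of known elements, namely TATAAA of the TATA box, CCAAT of the CCAAT box, GGGCGG of the GC box, CCGGAAG of ETS factors, AGATAA of GATA factors, TGTTTAC of forkhead factors, TGACTCA of AP-1, GCGCATGCG of NRF1 and AAGATGG of YY1. Rpl18 and Sphk2 are read in opposite directions from windows that lie close together, chr7:52970727-52970826 on the plus strand and chr7:52970578-52970677 on the minus strand. Tcf7l2 is at chr19:55816200-55816299 (plus), Cdx2 at chr5:148118847-148118946 (minus), Kifc3 at chr8:97666441-97666540 (minus) and Spint2 at chr7:30066997-30067096 (minus).
Rpl18: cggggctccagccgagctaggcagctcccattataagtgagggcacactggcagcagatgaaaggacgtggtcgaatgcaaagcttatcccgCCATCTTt
Sphk2: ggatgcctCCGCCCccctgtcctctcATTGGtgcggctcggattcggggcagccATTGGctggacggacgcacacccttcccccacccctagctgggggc
Tcf7l2: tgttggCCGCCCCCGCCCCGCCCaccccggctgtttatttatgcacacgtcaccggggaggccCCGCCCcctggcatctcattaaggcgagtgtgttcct
Cdx2: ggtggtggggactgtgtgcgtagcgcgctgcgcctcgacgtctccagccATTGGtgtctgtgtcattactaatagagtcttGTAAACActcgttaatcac
Kifc3: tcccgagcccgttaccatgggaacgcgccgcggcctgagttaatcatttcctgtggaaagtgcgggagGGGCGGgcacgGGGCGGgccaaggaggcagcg
Spint2: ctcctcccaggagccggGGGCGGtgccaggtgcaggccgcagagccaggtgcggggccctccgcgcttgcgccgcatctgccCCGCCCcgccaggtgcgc

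GC boxes lay before Sphk2, Tcf7l2, Kifc3 and Spint2, and those at the 5′ end of the Tcf7l2 window overlapped each other. Cdx2 had a CCAAT box and a forkhead match, Sphk2 had CCAAT boxes, and Rpl18 had a YY1 match next to its start site. A GC box was present in 29.1% of the 100-base windows before the start sites of all 21275 autosomal genes, in 43.2% of those at anchors of the 822 loops (1016 start sites) and in 42.8% of those at anchors of the other 7260 loops alone (4318). A CCAAT box was present in 18.6%, 21.7% and 21.3% of the windows in the same order, the YY1 letters in 1.77%, 1.67% and 1.81%, and the forkhead letters in 0.921%, 0.787% and 0.463%. The GATA letters, which none of the printed promoters holds, stood in 3.29%, 3.05% and 1.27%. A match gives letters in a window and not a bound site.

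Among the 10 strongest loops, those of Tcf7l2, Arid5b, Slc26a2, Cdx2 and Kifc3 had a far anchor without a start site. A window of 200 bases is shown for 3 of them, Tcf7l2, Arid5b and Cdx2, on the plus strand and outside annotated exons. Each window was chosen for the most matches to the GATA and forkhead letters. The anchor joined to Tcf7l2 is represented by chr19:55786379-55786578, between genes, the one joined to Arid5b by chr10:67693689-67693888, within the body of Arid5b, and the one joined to Cdx2 by chr5:148111704-148111903, in an anchor that overlaps the Cdx2 gene.
Tcf7l2 far anchor: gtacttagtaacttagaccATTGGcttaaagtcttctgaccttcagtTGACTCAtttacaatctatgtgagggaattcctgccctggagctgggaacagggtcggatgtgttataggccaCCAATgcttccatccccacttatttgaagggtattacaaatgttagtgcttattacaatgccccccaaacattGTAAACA
Arid5b far anchor: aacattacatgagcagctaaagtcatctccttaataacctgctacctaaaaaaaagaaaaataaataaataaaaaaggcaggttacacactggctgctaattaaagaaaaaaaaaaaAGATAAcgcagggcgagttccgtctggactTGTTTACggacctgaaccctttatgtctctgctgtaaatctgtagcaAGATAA
Cdx2 far anchor: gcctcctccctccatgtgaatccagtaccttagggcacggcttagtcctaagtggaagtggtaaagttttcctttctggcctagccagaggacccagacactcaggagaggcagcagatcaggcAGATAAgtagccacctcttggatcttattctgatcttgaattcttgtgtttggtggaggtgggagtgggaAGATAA

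Capitals have the same meaning here. The whole anchor far from Arid5b, 3678 bp wide, held 9 GATA and 2 forkhead matches, the anchor near Cdx2 (2436 bp) held 4 GATA matches, and the Tcf7l2 far anchor (5179 bp) held 5 AP-1 matches, 1 forkhead match and no GATA match. The Kifc3 far anchor (2191 bp), not shown, held 1 GATA match and 1 forkhead match. Since the windows shown were picked for their matches, the background was taken from all anchors without a start site. Of 7661 such windows of 200 bases at anchors of the 822 loops, 10.7% held the GATA letters, 2.88% the forkhead letters and 4.32% the AP-1 letters. At anchors of the other loops (28714 windows) these shares were 10.3%, 2.83% and 4.06%.

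The sort was checked in the read pairs at the start sites of marker genes, counted as CPM, a library's counts scaled to the same total of read pairs in loops. In double positive libraries Epcam had 60.6 ± 41.5 CPM (SD, n = 5), against 7.91 ± 6.79 CPM (SD, n = 12) in bulk ones. Cd38 had 116 ± 59.2 and 15.4 ± 13.3 CPM. Summed over both genes, double positive libraries lay between 93.1 and 262 CPM and bulk libraries between 0 and 49.2 CPM, so the groups did not overlap. The list of 23 endoderm markers had 6450 ± 489 CPM in double positive against 701 ± 83.7 CPM in bulk libraries, with Krt18 as its most abundant gene in double positive and Lamc1 in bulk libraries, and Lamc1, Apob and Hnf4a were among those with no double positive read pair. Col4a1 and Col4a2 had identical double positive values (232 read pairs, 594 ± 119 CPM each), and both entered this sum. The list of 12 neural markers had 498 ± 49.8 against 1200 ± 314 CPM, with Nes most abundant in double positive and Hoxb5 in bulk libraries, and its members did not move together. Pax6 and Pou3f2 had 87.1 and 19.2 CPM in double positive against 239 and 186 CPM in bulk libraries, whereas Nes had 130 against 64.7 CPM and Tubb3 106 against 43.8 CPM. Sox1 and Sox3 were at 0 in both groups, and Isl1 at 0 in double positive and 5 read pairs in bulk libraries. The 8 mesoderm and muscle markers had 103 ± 29.2 against 85.7 ± 36.5 CPM (Myl7 most abundant) and the 5 pluripotency markers 147 ± 77.6 against 58.7 ± 17.6 CPM (Pou5f1 most abundant in double positive and Esrrb in bulk libraries). Tbx5, Hand1 and Hand2 were at 0 in both groups. Nanog was at 0 in double positive and 4 read pairs in bulk libraries, and Esrrb at 0 and 54.

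These levels depend on the scale. Bulk loops used 216073 anchors and double positive loops 15082, so that loops with both anchors in both groups (shared anchors, 15074 of them) held 99.99% of double positive and 12.3% of bulk read pairs. Scaled to the read pairs on shared anchors, bulk libraries had 74.7 ± 75.5 CPM at the sorting markers, 1350 ± 378 at the endoderm markers, 5137 ± 1199 at the neural markers, 216 ± 146 at the mesoderm and muscle markers and 85.9 ± 73.3 at the pluripotency markers, while double positive means stayed as above to 3 digits. On that scale the sorting markers lay between 0 and 227 CPM in bulk libraries, so the groups overlapped, and Epcam alone had 60.6 ± 41.5 against 48.7 ± 56.03 CPM, a difference within the spread. Cd38 had 116 ± 59.2 in double positive against 26.1 ± 42.3 CPM in bulk libraries. Nes (334 ± 383 CPM) and Tubb3 (177 ± 106 CPM) then had higher means in bulk libraries, both differences within the spread. The mesoderm and muscle list turned from higher to lower in double positive libraries between these scales, and the other 4 lists kept their direction. On shared anchors the groups also overlapped at the pluripotency markers (77.3 to 268 CPM in double positive against 0 to 282 in bulk libraries). They overlapped at the mesoderm and muscle markers too (59.4 to 137 against 32.9 to 547 CPM), but not at the endoderm and neural markers. Lamc1, Apob, Hnf4a, Isl1, Nanog and Esrrb, absent from double positive libraries, had no bulk read pair on shared anchors either. Their absence thus goes with the smaller set of double positive anchors, and a loss of contacts was not tested. Of all these markers, Krt18 and Sox17 lay at anchors of the 822 loops, and neither Epcam nor Cd38 did.

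The strongest of the 822 loops joined neighbouring anchors on chromosome 7 (52967075 to 52971863, then 52972415 to 52977354), over the start sites of Rpl18, a protein of the large ribosomal subunit, and Sphk2, a kinase that makes sphingosine 1-phosphate, with Fam83e at the second anchor. It had 39, 25, 14, 18 and 24 read pairs in double positive libraries 1 to 5, and the lowest, median and highest bulk counts were 0. All 5 double positive libraries were high, between 232 and 356 CPM. With 3 read pairs over the 12 bulk libraries as the floor of a count of 0, the loop was 158-fold above that floor on all read pairs. On shared anchors it was 19.4-fold above. Such folds take the double positive count as it stands, without its own counting error. Ribosomal protein genes have many near copies in the genome, so reads at Rpl18 may be placed less surely than others.

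The second loop, on chromosome 19, spanned 28.4 kb from the intergenic anchor shown above to the start site of Tcf7l2, the factor that carries Wnt signals to DNA together with beta-catenin. Its counts were 28, 13, 6, 12 and 14 read pairs, or 176 ± 57.4 CPM (SD, n = 5). This was 96.1-fold above the bulk floor on all read pairs and 11.8-fold on shared anchors. The third, on chromosome 10, spanned 46.1 kb between the start site of Arid5b, a DNA-binding protein of the ARID family, and the anchor inside the gene. It had 19, 11, 10, 2 and 12 read pairs, with library 4 well below the other 4 in CPM (39.6 against 116 to 196). Slc23a1, a transporter of vitamin C, was joined to the predicted gene Gm1614 on chromosome 18 over 25.2 kb by 15, 11, 4, 6 and 15 read pairs. None of these loops had a read pair in any bulk library, where fewer cells with a loop and fewer contacts per cell cannot be told apart.

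Tmem39a, a membrane protein of the endoplasmic reticulum, had start sites within 1 kb of both anchors of a loop of 6.22 kb on chromosome 16 with 15, 10, 4, 7 and 12 read pairs. Slc26a2, a sulfate transporter, was joined to an anchor inside Pde6a, 23.0 kb away on chromosome 18, by 16, 5, 8, 7 and 11 read pairs. Cdx2, a homeobox factor of trophectoderm and hindgut, was joined over 6.23 kb on chromosome 5 to the anchor shown above by 10, 6, 8, 4 and 16 read pairs. In each of these loops all 5 libraries had read pairs, and the spread of the CPM values, 22.6 to 42.9 (SD), was below the mean of 109 to 119.

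Kifc3, a kinesin motor that moves towards the minus ends of microtubules, had a loop of 6.63 kb on chromosome 8 with 16, 6, 8, 7 and 6 read pairs. The remaining pair of the 10 strongest loops touched no start site. The stronger was on chromosome 9, between the anchors at 14016836 to 14022544 and at 14037285 to 14042903, with 13, 8, 2, 7 and 14 read pairs. Its counterpart on chromosome 4, between the anchors at 129469998 to 129476051 and at 129487333 to 129489530, had 13, 5, 8, 3 and 13 read pairs. No 2 of these 10 loops share an anchor. The last was tied with a loop on chromosome 9, between the anchors at 114454543 to 114460519 and at 114490046 to 114494971, which also touched no start site and had 15, 7, 1, 8 and 11 read pairs, and ties were ordered by chromosome.

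**Figure D1:**
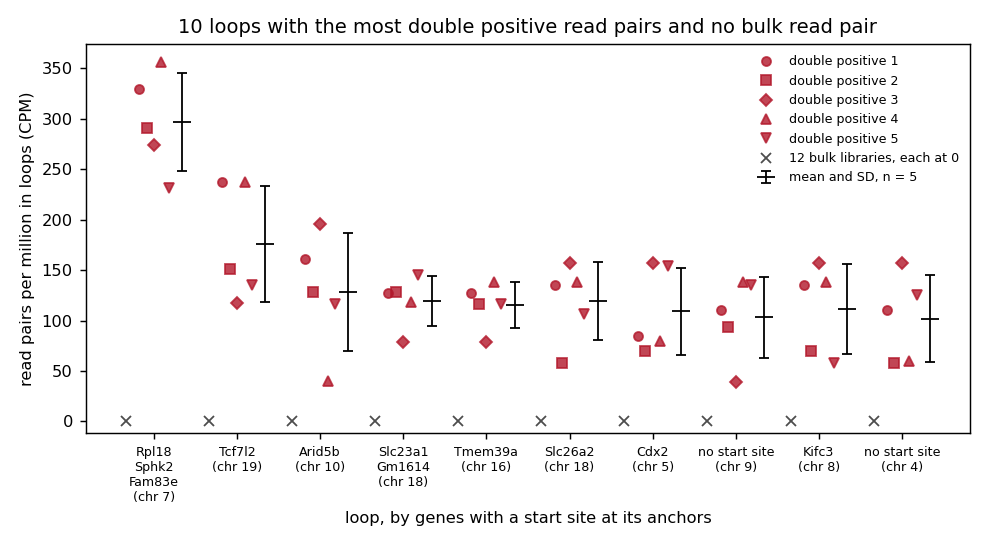
Counts scaled to the library's read pairs in loops (CPM, linear axis) of the 10 strongest loops, each symbol a double positive library, crosses the 12 bulk libraries, and bars the mean and SD over 5 libraries. The Rpl18 and Sphk2 loop lies at 232 to 356 CPM, every other loop at 238 CPM or less, and each bulk library at 0.

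Most of the 822 loops were weaker. Their median count was 12 read pairs over the 5 libraries, 99 had 20 or more and 26 had 30 or more, and together they took up 2.91% ± 0.130 (SD, n = 5) of a double positive library's read pairs (2.69% to 3.03%). This share was 1.66% in loops chosen without double positive library 1 and 1.90% without library 5. A loop with 12 read pairs was 15.8-fold above the bulk floor on all read pairs but 1.94-fold on shared anchors. One with 10 read pairs was 13.2-fold and 1.61-fold above it. These folds are no lower bounds, since the double positive count that chose the loop carries its own error. Read pairs were present in all 5 double positive libraries for 448 loops, in 4 for 313, in 3 for 59 and in 2 for 2. Thus in 448 of 822 loops every double positive library lay above every bulk library, a count fixed largely by the choice of loops, beside 52.5% of all 8082 loops with 10 or more read pairs. Read pairs in all 5 double positive libraries were found in 54.5% of the 822 loops and in 69.9% of the others. PCR copies are no independent molecules, so the floors and intervals given here cover counting error alone.

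The count of 0 was the end of a continuous range. Of the 8082 loops, 822 had 0 bulk read pairs, 1076 had 1, 1069 had 2, 838 had 3 and 754 had 4, and 1481 had 10 or more. Just inside the limit stood 197 loops with 10 double positive read pairs. The shortest, of 5.03 kb on chromosome 6, touched no start site and had 6, 0, 0, 2 and 2 read pairs. Next came one of 6.25 kb between histone genes on chromosome 13 with 3, 2, 0, 3 and 2. One of 6.32 kb between Men1 and Map4k2 on chromosome 19 had 3, 2, 2, 1 and 2. Just outside stood 275 loops with 9 read pairs and no bulk read pair, among them loops at Pax9, at Gcat and between Cidec and Jagn1. The 1076 loops with 1 bulk read pair lay outside as well, and a loop between Rasl10a and Gas2l1 on chromosome 11 had 110 double positive read pairs and 1 bulk read pair.

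How many bulk read pairs lay at the anchors varied with the outcome. The less used anchor of a loop had a median of 24 bulk read pairs in the 822 loops and 50 in the other 7260, counting a loop's own bulk read pairs, which are 0 in the 822 loops by choice. Of loops whose less used anchor had 1 to 9 bulk read pairs, 42.2% had no bulk read pair (95% exact interval 35.1% to 49.5%). The share was 26.8% at 10 to 19, 14.2% at 20 to 39, 5.33% at 40 to 79 and 1.76% at 80 or more (1.22% to 2.45%). All 822 loops had both anchors in loops of both groups, as had the loops that held 99.99% of all double positive read pairs. Both anchors had identical coordinates in some file of each group in 621 of the 822 (75.5%), against 78.7% of the other loops.

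**Figure D2:**
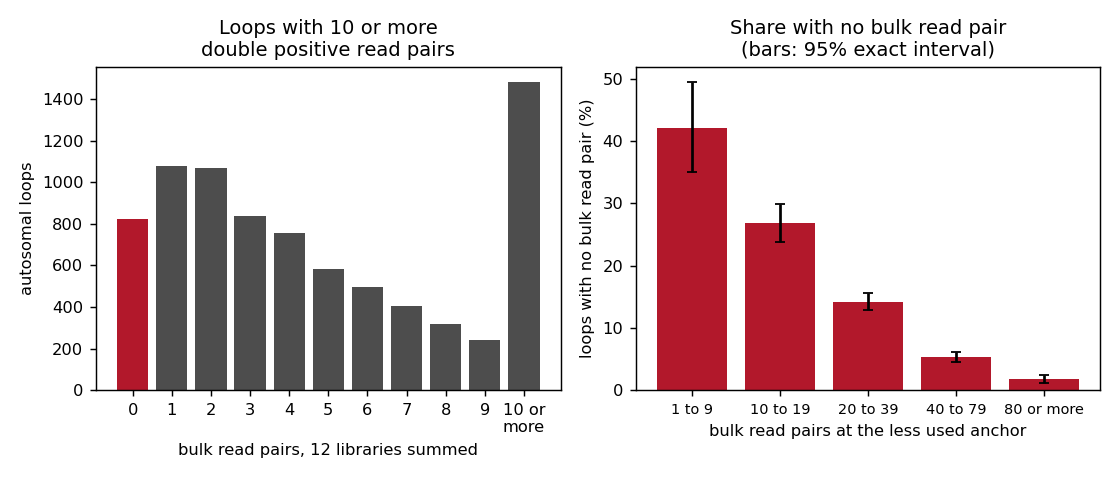
Left, number of autosomal loops with 10 or more double positive read pairs against their bulk read pairs over 12 libraries, the 822 loops in red; right, share of such loops with no bulk read pair (%, bars 95% exact interval) against the bulk read pairs at the less used anchor. The share falls from 42.2% to 1.76% as bulk read pairs at the anchor increase.

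To set each loop against the use of its anchors, its share of an anchor's double positive read pairs was compared with the share that 0 bulk read pairs allow, taking 3 counts of the bulk read pairs at that anchor on shared anchors. The Rpl18 and Sphk2 loop took 27.6% of the 435 double positive read pairs at its second anchor, where 0 of 60 bulk read pairs allow up to 5%. It took 31.5% at its first anchor, where 0 of 42 allow up to 7.14%. Tcf7l2 took 23.9% of the read pairs at its promoter anchor, against a limit of 8.82%. The Cdx2 loop took 83.0% of the read pairs at its promoter anchor, but with 3 bulk read pairs there the limit is 100%, so a difference was not detectable at this depth. In all, 401 of the 822 loops (48.8%) lay above the bulk limit at either anchor and 90 (10.9%) at both. Among the other 7260 loops, with their own bulk read pairs in place of 3 where these were more, the shares were higher, 67.2% and 30.5%. In 73 of the 822 loops (8.88%) over 50% of an anchor's double positive read pairs lay in that loop, against 10.9% of the other loops, and the median share at the anchor where it was larger was 19.6% against 22.1%. These shares come from the read pairs that chose the loops and carry no test.

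Libraries left out of the choice gave values that the choice had not used. When the rule was applied without a bulk library, 858 to 1055 loops were chosen, and 36 to 233 of them had a read pair in the library left out, on average 10.8% ± 5.41 (SD, n = 12 libraries). The mean level there was 0.879 ± 0.176 CPM, against 1.29 ± 0.225 CPM for loops with 1 read pair in the other 11 bulk libraries, 1.67 ± 0.40 for those with 2 and 2.24 ± 0.603 for those with 3. When a double positive library was left out, 344 to 601 loops were chosen, and 84.0% ± 11.1 (SD, n = 5) of them had a read pair in the library left out, with a mean level of 34.7 ± 3.23 CPM in place of 43.2 ± 3.61 CPM in the libraries used. Loops with bulk read pairs chosen in the same way had a read pair in the left-out library in 91.6% ± 7.0, at 58.0 ± 3.55 in place of 62.3 ± 4.30 CPM. These CPM are scaled to all read pairs, of which 12.3% of bulk and 99.99% of double positive ones lay on shared anchors. Scaled to shared anchors, the bulk levels would be higher, and they were not computed on that scale. So the loops were low but not at 0 in a bulk library that had no part in choosing them, and lower in a double positive library with no part in it than in those that had one.

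The 822 loops were long. Their median span, between the middles of the anchors, was 50.6 kb, against 32.3 kb for the other 7260 loops, and the quartiles were 23.8 and 106 kb against 14.6 and 71.7 kb. Spans over 100 kb made up 27.1% of the 822 loops and 15.9% of the others. Longer loops also have fewer read pairs in general, and the comparison was repeated within classes of double positive read pairs. The median span was 61.6 against 47.1 kb at 10 to 14 read pairs, 42.9 against 34.6 kb at 15 to 19, 32.7 against 24.8 kb at 20 to 29 and 18.9 against 15.9 kb at 30 or more. The loops were longer in each class, and no test was made, since bulk counts had chosen them. Over the 5 double positive libraries, the median span of the loops with a read pair in a library was 49494 ± 794 bp (SD).

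The longest of the loops lay on chromosome 13, from the anchor at 22024769 to 22033596 to the one at 23527607 to 23531671, a span of 1500 kb, with 2, 2, 1, 0 and 6 read pairs. Of its 11 read pairs 6 were in library 5. Neither anchor held a start site or lay within a gene. The next joined Arrdc3, an arrestin-like protein, to Lysmd3 over 774 kb, also on chromosome 13, with 5, 2, 0, 1 and 3 read pairs. The third joined Phf12, a PHD finger protein, to Ift20 and Tnfaip1 over 554 kb on chromosome 11 with 3, 0, 4, 2 and 1 read pairs. Each was seen in 4 of 5 double positive libraries.

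**Figure D3:**
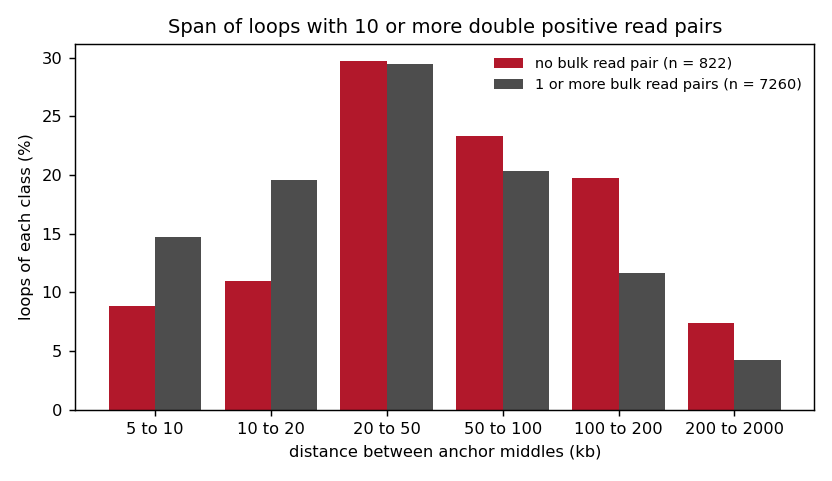
Share (%) of the 822 loops without bulk read pairs and of the other 7260 loops with 10 or more double positive read pairs in each class of distance between anchor middles (kb). The 822 loops hold a smaller share from 5 to 20 kb and a larger one above 50 kb.

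Promoters were frequent at the anchors. A start site of a protein-coding gene lay within 1 kb of both anchors in 414 of the 822 loops (50.4%, 95% exact interval 46.9% to 53.8%), of 1 anchor in 311 (37.8%) and of neither in 97 (11.8%, 9.67% to 14.2%). In the other 7260 loops these shares were 59.1%, 33.7% and 7.20%. The loops of promoters with promoters had a median span of 54.7 kb, those with a start site at 1 anchor 45.5 kb, and those with none were the longest. The share with start sites at both anchors was lower among stronger loops, 54.8% at 10 to 14 read pairs and 30.8% at 30 or more, against 62.0% and 49.7% in the other loops. In 14 loops the same gene had start sites at both anchors, as in Tmem39a.

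The 822 loops used 1378 anchors, of which 968 had a start site and 410 did not, and 54.4% of the latter lay within a gene, against 46.7% at the other loops. Anchors without a start site had a median GC content of 47.7% and a median ratio of observed to expected CpG of 0.256, and those with one 51.3% and 0.484, close to the values at anchors of the other loops (48.3% and 0.263, 51.6% and 0.507). Loops were spread over all autosomes. They made up 17.3% of the loops with 10 or more double positive read pairs on chromosome 9 (13.9% to 21.1%) and 4.15% on chromosome 1 (2.23% to 7.0%). The distal ends of chromosomes 1 and 2 and the start of chromosome 11, left out in an alternative, held 3 of the 822 loops among 365 (0.822%), against 10.6% elsewhere.

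In all, 1117 genes had a start site at an anchor of the 822 loops, 19.2% of the 5811 genes at anchors of loops with 10 or more double positive read pairs. This share is the background for the gene groups that follow, which are described by counts alone. Genes of 30 lists were looked up, and 188 of the 997 listed genes at such anchors lay at the 822 loops. Without double positive library 1, 2 or 5 this number was 84, 118 or 106. A loop says that a start site and another region were joined, and the files hold no measure of transcription.

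Transcription factors of endoderm were among the genes at these loops in 4 of 13 cases, among them Tcf7l2, Cdx2 and Sox17. Sox17, needed for definitive endoderm and present in primitive endoderm, was joined to a region 74.6 kb away by 4, 4, 2, 1 and 1 read pairs. Its 12 read pairs are the median of the 822 loops, whereas Tcf7l2 and Cdx2 belong to the 10 strongest. Of 6 neural factors, Mnx1 and Sox4 were included, and Mnx1, a homeobox factor of motor neurons and pancreas, had 10, 5, 1, 3 and 14 read pairs over 9.70 kb. None of 5 pluripotency genes was included, and 1 of 8 Hox genes, Hoxc12, had 11 read pairs.

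Genes of uptake and of lipoproteins were present in 6 of 19 cases. Apoa1 and Apoa4, apolipoproteins of liver, gut and yolk sac, were joined to each other over 12.8 kb on chromosome 9 by 4, 1, 4, 0 and 7 read pairs, and Apoa4 also to Apoc3 over 5.48 kb by 4, 1, 3, 0 and 5. Both loops were absent from library 4. Ctsb, a lysosomal protease, was joined to a region 46.5 kb away by 15 read pairs and Snx1, a sorting nexin of endosomes, to Snx22 over 57.4 kb by 15. None of 8 genes of the V-ATPase, the proton pump of these compartments, was included.

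Secretion and glycosylation had 15 of 48 genes at these loops. Sec13, a coat protein of vesicles that leave the endoplasmic reticulum, was joined to Tatdn2 over 44.3 kb by 7, 6, 2, 2 and 7 read pairs. Kdelr3, a receptor that returns proteins to the endoplasmic reticulum, had loops of 169 kb to Maff (16 read pairs) and of 142 kb to Cby1 (13). Arf5, a small GTPase of the Golgi, was joined to Snd1 by 20 read pairs and Sec24a, another coat protein, to D930048N14Rik and N4bp3 over 108 kb by 3, 2, 4, 1 and 2 and to Rmnd5b by 0, 2, 1, 1 and 6. The list also held Sec1, which is a fucosyltransferase and no part of the secretion machinery. Among chaperones, 11 of 65, Fkbp10, which assists the folding of collagen, was joined to the junction protein Jup over 17.4 kb by 6, 6, 5, 6 and 7 read pairs, or 81.0 ± 27.1 CPM (SD, n = 5). Hspa1a and Hspa1b, also on that list, are near copies of each other, and how their reads were placed was not tested.

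Genes of the epithelial cytoskeleton and junctions included Krt18, 1 of 6 keratins, and 3 of 17 junction genes, among them Cldn7 and Jup. The shares of keratins (16.7%), junction genes (17.6%) and basement membrane genes (5.88%) lay below the background of 19.2%. That of actin and tubulin genes (32.3%) lay above it. Krt18, a keratin of simple epithelia, had 4 of the loops, with 18 read pairs to a region 39.1 kb away, 14 and 12 to 2 anchors at Tenc1 and 13 to Spryd3, 109 kb away. Its anchor had 603 double positive and 69 bulk read pairs in all, so that these 4 loops held a small part of them. Cldn7, a claudin of tight junctions, had 3 loops of 16, 15 and 11 read pairs to regions 10.8 to 15.2 kb away. The list of actin, tubulin and their partners had 10 of 31 genes, among them Actn4, an actinin, with 6, 2, 3, 0 and 8 read pairs to a region 23.2 kb away. Tuba1b and Tuba1c, joined to each other by 18 read pairs, are near copies of each other, so their loop is uncertain, and how the reads were placed was not tested. Of 17 genes of basement membrane and matrix only P4ha2 was included, an enzyme that hydroxylates collagen, with 21 read pairs to Pdlim4.

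Signals and receptors were represented by 5 of 26 genes of the Wnt, BMP, TGF-beta, Notch and Hedgehog pathways. Beside Tcf7l2, the Wnt receptors Fzd4 (18 and 15 read pairs in 2 loops) and Lrp5 (17) were included, and the ligand Ihh, a hedgehog protein, with loops of 124 and 142 kb of 13 and 12 read pairs. Of 10 retinoid genes, 2 were included. Rxrb, a receptor that pairs with RA receptors, shares its anchor with the zinc transporter Slc39a7, and that anchor was joined to H2-K1 by 6, 4, 1, 1 and 8 read pairs and to Wdr46 and H2-Ke2 by 4, 2, 1, 2 and 8. Stra6, the receptor for retinol-binding protein, had 15 read pairs to a region 27.7 kb away. Immediate early genes numbered 6 of 26. Maff, a small Maf factor, had 3 loops of 21, 16 and 12 read pairs, Zfp36l1, an mRNA decay protein, had 30 to a region 10.9 kb away, and Fosb, an AP-1 subunit, had 17 to Ercc1 and 10 to Gpr4.

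Transporters were the list with the most loops, 27 at 20 of 85 solute carrier genes, with a median of 15 read pairs. Slc23a1 and Slc26a2 have been described above. Slc39a4, a zinc transporter of gut and yolk sac, was joined to Adck5 by 11, 3, 1, 1 and 6 read pairs and to Tonsl by 4, 7, 2, 0 and 6. The list of small GTPases of vesicle traffic and the cytoskeleton, with their regulators, had 10 of 56 genes. Rab11fip5, a partner of Rab11 in recycling endosomes, had 4 loops of 18, 16, 12 and 12 read pairs, the longest of 223 kb to the pseudogene Spr-ps1.

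Genes that every cell uses were at these loops as well. Of ribosomal proteins 13 of 62 were included, of translation factors 9 of 42, of the mitochondrial ribosome 7 of 40, of the respiratory chain 5 of 51, of splicing and RNA-binding proteins 11 of 78, of the proteasome 4 of 24 and of tRNA synthetases 2 of 16. Beside Rpl18, Rpl9 was joined to Klb over 42.0 kb by 7, 4, 4, 1 and 6 read pairs. Hnrnpk, an RNA-binding protein, had 10, 5, 1, 3 and 4 read pairs to 2210016F16Rik, and Psmd1, of the proteasome, 10, 10, 2, 1 and 3 to 2810459M11Rik. Eif2ak3, on the list of translation factors, is a kinase that responds to unfolded proteins. Of 51 cell cycle genes 6 were included, but Cdc42ep1, Cdc42bpb and Cdc42se1 are partners of the GTPase Cdc42 and only share the letters of the name, while Cdc6 loads the replicative helicase.

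Histone genes of the replication clusters reached the highest share among lists of 10 or more genes, 20 of 54. They lie close together, however, so that the 20 genes were at 10 anchors of 7 loops, and as they are near copies of each other the position of their reads is uncertain and was not tested. Zinc finger proteins gave 16 of 139 genes with 20 loops, among them Zfp809, a repressor of proviral DNA in ES cells, with 4 loops of 23, 23, 13 and 10 read pairs, and Zfp872 with 28. Lists with 5 or more genes at loops thus ranged from 0 genes to 37.0% around the background of 19.2%, and no list was tested. Clustered protocadherins (Pcdhb15 and Pcdhb16, 2 of 4) shared 1 loop, and the lists of mesoderm genes (0 of 1) and of the sorting markers (0 of 1) had too few genes at loops to be described.

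**Figure D4:**
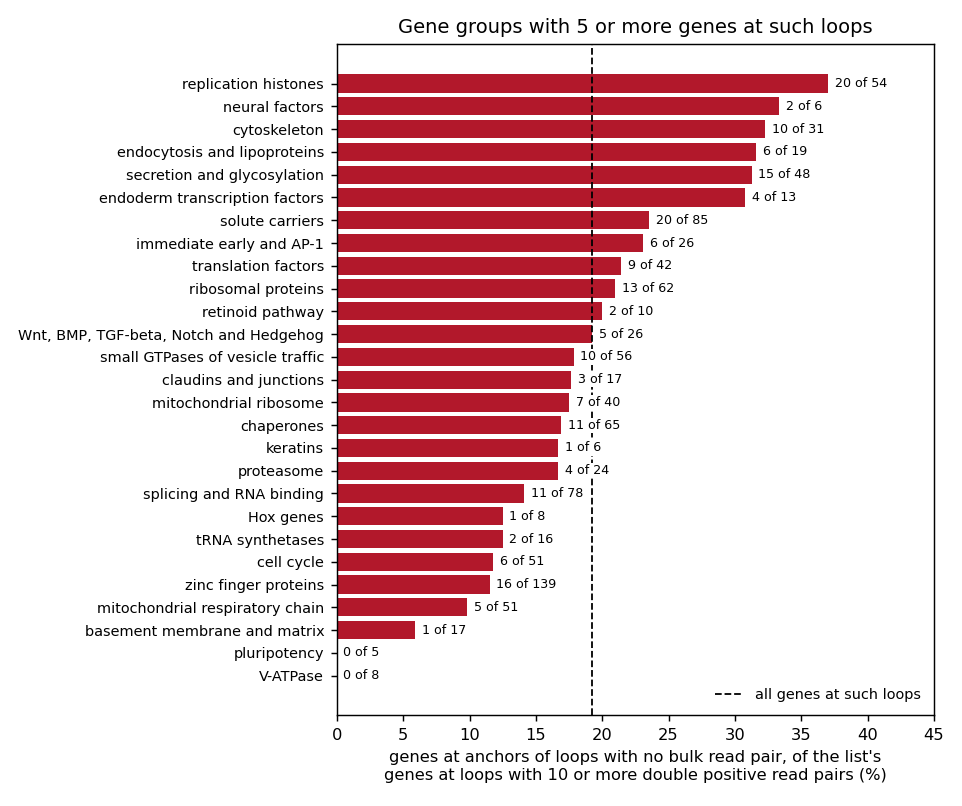
Share (%) of the genes of each list at anchors of loops with 10 or more double positive read pairs that lay at the 822 loops without bulk read pairs, with the counts beside the bars and the share of all such genes, 19.2%, as a dashed line. Replication histones lie highest at 37.0%, followed by neural factors at 33.3% (2 of 6 genes). Lists of secretion, uptake, cytoskeleton and endoderm factors lie at 30.8% to 32.3%. The lists of the cell cycle, zinc finger proteins, respiratory chain and basement membrane lie at 11.8%, 11.5%, 9.80% and 5.88%. The V-ATPase and pluripotency lists hold 0.

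Anchors were shared between loops. Of the 1378 anchors, 1169 carried 1 of the loops, 164 carried 2, 34 carried 3, 10 carried 4 and 1 carried 5. The loops fell into 570 connected groups, and 436 loops had no anchor in common with another. The anchor with 5 loops lay at Spint2, an inhibitor of serine proteases at the surface of epithelial cells. It was joined to Yif1b by 8, 6, 1, 0 and 4 read pairs, to Catsperg1 by 8, 1, 1, 1 and 4 and to Kcnk6 by 2, 2, 3, 3 and 4. Further loops led to Dpf1 (11 read pairs) and to a region without a start site (14), and all 5 spanned 12.6 to 69.5 kb. The Spint2 anchor had 267 double positive and 41 bulk read pairs in all, and 73 of the former lay in the 5 loops. Slc23a1 had loops to Gm1614, Spata24 (21 read pairs), Dnajc18 (15) and Matr3 (11).

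Vamp8, a SNARE protein of endosome fusion, and the predicted gene Gm17505 shared an anchor on chromosome 6 from 72338785 to 72344289 with 4 of the loops. It was joined to Tmem150a by 10, 3, 5, 3 and 12 read pairs, to Vamp5, a related SNARE, by 10, 7, 0, 5 and 6, and to a region 15.1 kb away by 7, 6, 2, 4 and 6. A further loop of 98.3 kb had 12 read pairs. The neighbourhood, from 72241952 to 72358187, held 16 loops with 10 or more double positive read pairs, of which 9 had no bulk read pair, and the 16 had 369 double positive and 40 bulk read pairs. The loops with bulk read pairs joined anchors that the other loops also used. Rnf181, an ubiquitin ligase, was joined to the Vamp8 anchor by 39 double positive and 1 bulk read pair, and Usp39, a splicing protein, to Tmem150a by 34 and 17. Loops with and without bulk read pairs thus lay side by side.

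**Figure D5:**
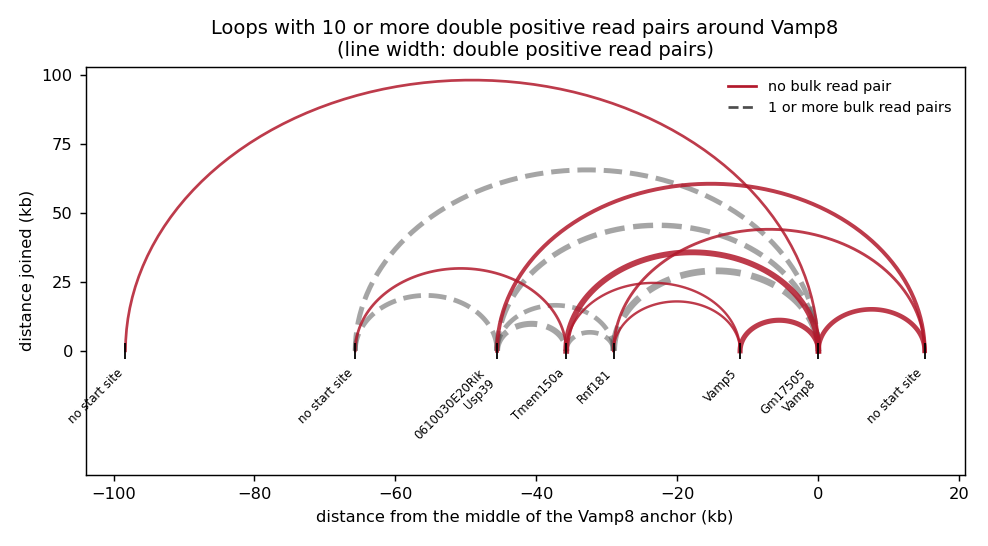
Loops with 10 or more double positive read pairs around Vamp8, as arcs between anchor middles (distance from the Vamp8 anchor in kb), with the height giving the distance joined (kb) and the line width the read pairs. Red arcs have no bulk read pair (9 loops) and dashed grey arcs have 1 to 17 (7 loops).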

How the data were processed

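H3K27ac HiChIP of RA-treated EBs was analysed in 12 bulk and 5 double positive libraries. Reads were aligned to mm9 with HiC-Pro and loops called with hichipper by the authors, who deposited raw counts, the read pairs found between 2 anchors in a library. A loop absent from a file has a count of 0. Alignment and loop calling were not repeated.

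Anchors of the 17 libraries that overlapped by 1 base or more became 216081 joined anchors, between which 1211657 loops had a count. A total of 700 read pairs whose anchors fell together were dropped. Counts were summed over the libraries of a group. CPM are counts divided by a library's read pairs in loops or, where named, in loops on shared anchors, times 1e+06. The floor of a count of 0 was 3 read pairs over the bulk libraries. Folds above this floor take the double positive count as it stands. Start sites and gene bodies of 22232 protein-coding genes came from GENCODE vM1 and sequences from NCBIM37, both of the mm9 build.

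The members and gene lists were chosen with earlier results of these data known. Loops named are the 10 with the most read pairs, passing over shared anchors, the 3 longest and the 3 anchors with the most loops, with examples by smallest span at the limits of the rule. Genes named are those at these loops and up to 4 of a list by read pairs.

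No test of double positive against bulk libraries was run, since this contrast chose the loops. Libraries were left out in turn for values that the choice had not used. Shares carry exact (Clopper-Pearson) 95% intervals of counting error. In a chi-square test per anchor, all 10 double positive library pairs (largest p = 7.24e-08) and all 66 bulk pairs differed beyond counting noise. This test cannot show that libraries came from separate cultures, since it sets them against counting noise alone. Each library was counted as 1 sample by its label. Alternatives were other limits of read pairs, other ways of joining anchors, thinned bulk libraries, other start site windows, no distal ends of chromosomes 1 and 2 or start of chromosome 11, and each library left out. Python 3.11.15 with numpy 2.4.6, pandas 2.3.3, scipy 1.17.1, networkx 3.6.1 and matplotlib 3.10.9 was used. Single-cell data and inferred profiles of subpopulations were not used here, and some genes that the rule names are not reported here.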

Additional observations from a re-analysis of the deposited data

Results flagged for a closer look

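The sex chromosomes lay outside the choice of loops and held a signal of the same kind. Of 76 loops there with 10 or more double positive read pairs, 10 had no bulk read pair, or 13.2%, beside 10.2% on the autosomes. These 10 loops entered no comparison. Of 14 sets of 5 double positive values that were checked for a library far from the others, none passed Dixon's limit of 0.71 for 5 samples, and chance passes about 1 in 20 such sets.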

How the results depend on the processing

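The number of loops depended on the limits of read pairs, on the depth of bulk libraries and on whether anchors were joined. In place of 822 loops, a minimum of 5 read pairs gave 4472, a minimum of 20 gave 99, at most 1 bulk read pair gave 1898, anchors as each file lists them gave 2367, and bulk libraries thinned to the double positive total gave 3144. It was 789 with anchors within 1 kb joined, 692 with bins of 10 kb, 621 with identical anchors in both groups, 822 with bulk anchor middles at least 5000 bp apart and 819 without the chromosome ends. The share with start sites at both anchors, 50.4% above, was 60.1% at a minimum of 5, 37.4% at 20, 57.2% with bins of 10 kb, 55.7% with thinned bulk libraries and 59.3% with start sites within 5 kb. The median span, 50594 bp above, was 105650.5 bp at a minimum of 5, 28394 bp at 20, 51931.5 bp with anchors within 1 kb joined, 43635.5 bp with anchors as listed, 60000 bp with bins of 10 kb, 47520.5 bp with identical anchors in both groups and 43371.25 bp with thinned bulk libraries. The number of listed genes, 188 above, and the share of double positive read pairs, 2.91% above, were 771 and 8.43% at a minimum of 5, 26 and 0.684% at 20, 399 and 7.01% with at most 1 bulk read pair, 427 and 11.99% with anchors as listed and 624 and 12.6% with thinned bulk libraries.

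With each library left out in turn the number ranged from 344 to 1055, the share with start sites at both anchors from 42.15% to 51.56%, the median span from 39784.25 to 51042.5 bp, the number of listed genes from 84 to 242 and the share of read pairs from 1.66% to 3.83%. The number was 344 without double positive library 1, 487 without library 2 and 417 without library 5, which are the 3 deepest of the group, and fewer read pairs then remain to reach 10. Over all results, counting also the share of read pairs in these loops, the share with no start site and the number of listed genes, 67 of the values with a library left out and 35 of those under other settings stayed within their limit, and 35 and 32 did not. The limit was 1.5 times for a number, the exact 95% interval for a share of loops and 1 SD over libraries for the span and the other shares, so that small moves of the span could pass it. Except where fewer samples or read pairs show it, the cause was not tested. The share of loops with a read pair in the bulk library left out was 15.6% in place of 10.8% at a minimum of 20. No paired analysis was possible because the results come from no test, the contrast having chosen the loops. Both groups carry the numbers 1 to 5. Over 1347 anchors with 50 or more read pairs in each group, deviations of same-numbered libraries from their group means correlated at -0.0403 to 0.0278. This was within the range of the 55 pairs of other numbers (-0.0799 to 0.0868). Read pairs per library are few at such anchors, so this comparison cannot show whether same-numbered libraries shared a culture. Depth limits what a count of 0 shows. A loop with 10 read pairs is only 1.61-fold above the bulk floor on shared anchors, before its own counting error.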
